A study of Mus musculus with 4 samples.

Results

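The mitochondrial carrier family was followed in ID8 cells, a mouse line of ovarian cancer, with and without knockdown of USP9X. Its members were taken as every row of the deposited table whose symbol is Slc25a followed by a digit, or Ucp1, Ucp2 or Ucp3, which gave 50 genes of 22063. RNA was sequenced from cells labelled wild type that carried the control shRNA (shCtrl, 2 libraries) and from cells labelled as USP9X knockdown that carried an shRNA against USP9X (shUSP9X, 2 libraries), so that both groups carry an shRNA. The labels give the shUSP9X libraries different names and do not say whether both hold the same hairpin, nor whether the libraries came from separate cultures, so p-values measure only the spread between these libraries, which may be technical. ID8 is 1 cell line, and treatment, oxygen level and time after knockdown of the sequenced cells were not given in the sources used here. Library depth, as the sum of estimated counts, was 17232006 and 15611363 for shCtrl and 19978889 and 17021261 for shUSP9X.

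Carriers of the SLC25 family are nuclear-encoded proteins that sit mostly in the inner mitochondrial membrane and move ATP and ADP, phosphate, organic acids, amino acids, cofactors and metal ions between the matrix and the cytosol. They are made in the cytosol and enter the inner membrane through the TOM pore, the small TIM chaperones and the TIM22 complex. In tumour cells their substrates link oxidative phosphorylation, the malate-aspartate shuttle, glutamine use, lipid synthesis and glutathione defence.

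Usp9x, which encodes the deubiquitinase that the shRNA targets, had 298 and 282 CPM (counts scaled to library size by the TMM method of edgeR) in the shCtrl libraries and 19.7 and 20.5 CPM in the shUSP9X libraries. The groups lay far apart, in the direction their labels give. The log2 fold change was -3.85 (standard error, SE, 0.06; adjusted p = 4.7e-26, edgeR). In bulk RNA, fewer cells of a type and less RNA per cell cannot be told apart. Markers of the labelled cell type were present, with a mean FPKM (fragments scaled by transcript length and library size) of 468 for Krt19. Of 8 markers of ovarian surface epithelium and mesothelium 7 were tested, of which 3 were higher and 3 lower, and Krt7 had at most 3 counts in a library. The 3 higher were the keratins Krt8 (log2 fold change 0.92), Krt18 (0.64) and Krt19. The 3 lower were Wt1 (-0.52), Msln (-0.47) and Lrrn4 (-1.64), and Lrrn4 had a mean of only 0.213 FPKM. Upk3b was not called. In the fit described below that corrects for GC content and length, 2 were higher and 5 lower, and Krt19 turned from 0.12 to -0.17 on the log2 scale, called both times. Without shUSP9X replicate 1 the Krt19 call was lost (0.09, edgeR adjusted p = 0.17). Of 7 leukocyte markers, 4 (Itgam, Adgre1, Ptprc and Csf1r) passed the filter on low counts. All 4 had 0 counts in both shCtrl libraries, so they passed through the shUSP9X libraries alone. Their higher call in shUSP9X cells was therefore set by the filter and is only a description. The summed FPKM of the 7 was 0 and 0.044 in shCtrl and 3.55 and 2.87 in shUSP9X, with Itgam the most abundant at a mean of 0.676 FPKM, Cd3e at 0 in every library and Lyz2 at 2 counts at most. Their part in the carrier results was not tested.

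Among the carriers tested, more transcripts were higher than lower after USP9X knockdown. Of the 50 genes, 40 passed the filter on low counts. At an adjusted p under 0.05 (edgeR's quasi-likelihood test, adjusted over all 11448 genes tested), 17 of the 40 were higher and 6 were lower. The same calls were made for 33.8% (higher) and 33.6% (lower) of all genes tested, and the difference of the carriers from this background was not tested. The median log2 fold change of the 40 carriers was 0.17, beside -0.00 for all genes tested. In CPM, the groups did not overlap for 21 carriers with higher and 12 with lower values in shUSP9X, against 41.2% and 41.0% of all genes. All 23 carriers called were among them, which is no separate support for the calls, since both rest on the same counts. The counts for the substrate groups below stand against the same background of 33.8% higher and 33.6% lower, and with 2 to 12 genes tested in a group none was tested for a difference from it.

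Of the 23 carriers called, 12 changed by a factor of 1.5 or less and 11 by more. The same division was not made for all genes called, so these counts are a description. With the sign ignored, the median log2 fold change was 0.24 for the 40 carriers tested and 0.38 for all genes tested. The study's methods name DESeq2 and use a p under 0.05 without adjustment together with a fold change over 1.5. At that cutoff, applied here to the edgeR fit, 8 carriers were higher and 3 lower, beside 10.8% (higher) and 18.7% (lower) of all genes tested. The 8 were Slc25a48, Slc25a22, Slc25a47, Slc25a10, Slc25a25, Slc25a43, Slc25a28 and Slc25a39, and the 3 were Slc25a27, Slc25a36 and Slc25a23. With DESeq2, 6 carriers were higher and 3 lower at this cutoff. In the edgeR fit described below that corrects for GC content and length, 5 were higher and 2 lower at this cutoff. Slc25a47, Slc25a43, Slc25a28, Slc25a39 and Slc25a36 then fell short of it, and Slc25a3 passed it. The 17 carriers not called had log2 fold changes between -0.23 and 0.31.

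**Figure D1:**
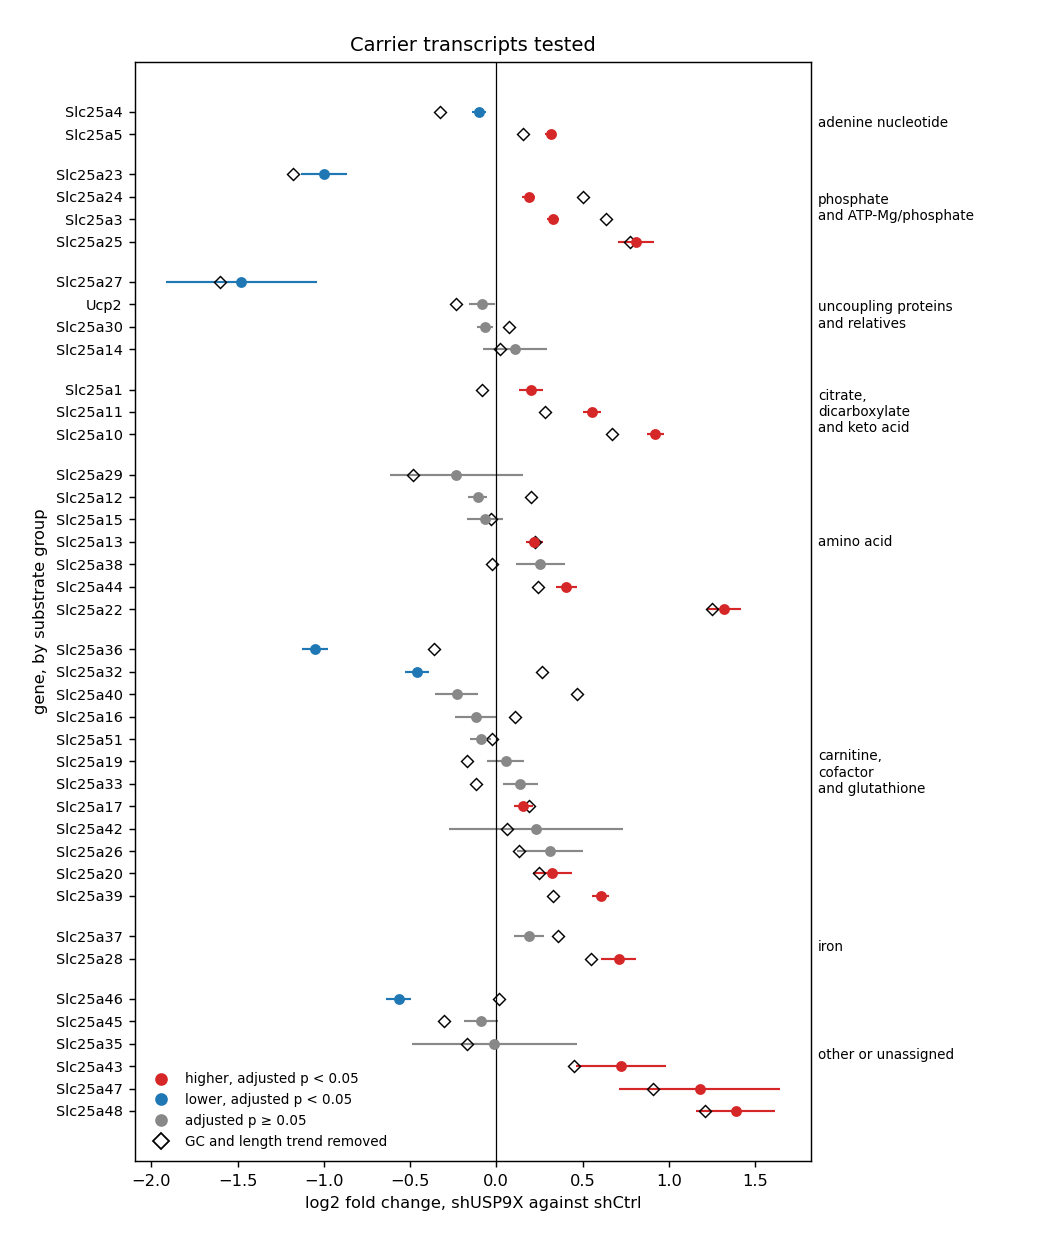
Log2 fold change (x axis) of the 40 carriers tested, grouped by substrate (y axis), with bars for the standard error of the edgeR fit. Red and blue points mark higher and lower calls, grey points no call, and open diamonds the value after removal of the GC content and length trend; the fits range from -1.48 for Slc25a27 to 1.39 for Slc25a48, and the diamond of Slc25a32 lies on the other side of 0.

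Fold changes in these libraries followed the GC content of the transcripts, and the carriers did so as well. Across the 40 carriers, Spearman's rho between log2 fold change and GC content was 0.43, as it was across all genes tested. Genes share the same 4 libraries and are not replicates, so this is a description. The carriers had a median GC content of 51.0% (39.4 to 60.6%), beside 49.6% for all genes tested. A second fit therefore removed each library's trend on GC content and length, by an offset, which takes out any difference that follows these properties, whatever its origin. It called 17 carriers higher and 6 lower, where it called 36.0% (higher) and 27.7% (lower) of all genes tested. Of the 23 carriers called without the offset, 17 kept their call and direction, 5 lost the call and 1, Slc25a32, was called in the opposite direction. For each carrier below, a value "with the offset" comes from that second fit.

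**Figure D2:**
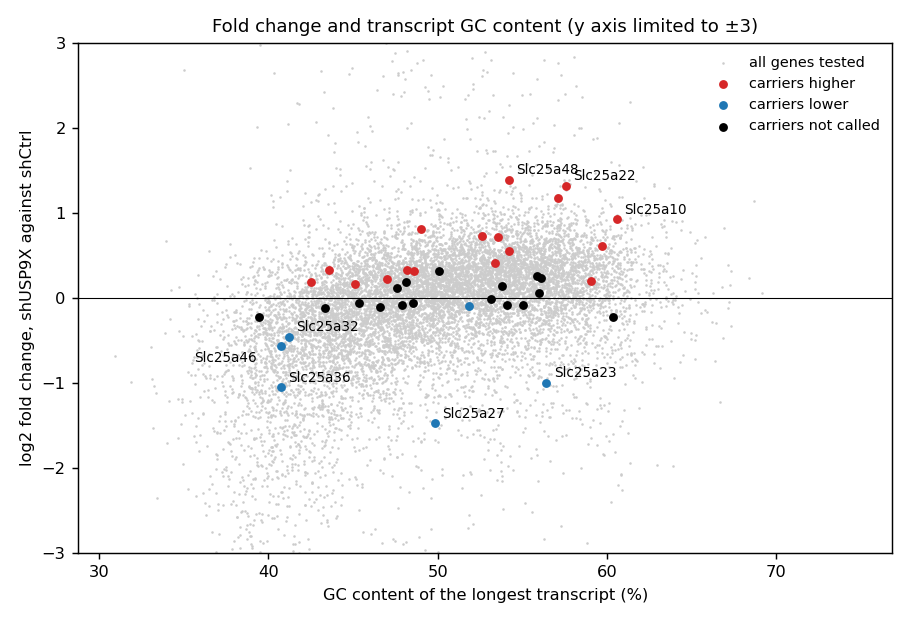
Log2 fold change against GC content of the longest transcript (%), with all genes tested in grey and the 40 carriers as larger points, red for higher, blue for lower and black for not called. Slc25a36, Slc25a46 and Slc25a32 lie at the low-GC end among genes that are mostly below 0, while Slc25a23 and Slc25a27 lie below 0 at a higher GC content.

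Levels differed widely among the carriers. By mean FPKM, which is scaled per length, 4 carriers were at 100 or above, 20 between 10 and 100, 11 between 1 and 10, and 9 above 0 but under 1. The remaining 6 (Slc25a2, Slc25a21, Slc25a31, Slc25a41, Ucp1 and Ucp3) had no count in any library. Slc25a31 is the germ-cell ADP/ATP carrier, and Ucp1 and Ucp3 are the uncoupling proteins of brown fat and skeletal muscle. Marker genes of brown fat summed to 3 and 5 counts in the controls and 0 and 3 after knockdown, and those of striated muscle to 0 and 8 and to 0 and 1. A further 4 carriers were counted but did not pass the filter. Of these, Slc25a53 had 22 and 8 counts in the controls and 11 and 6 after knockdown, and Slc25a18, Slc25a34 and Slc25a54 had at most 5 counts in a library. The summed FPKM of all carriers was 1614 and 1615 in shCtrl and 1916 and 1929 in shUSP9X. That was 0.345 and 0.349% of the total FPKM in shCtrl and 0.385 and 0.389% in shUSP9X. Slc25a5, Slc25a3, Slc25a4 and Slc25a39 took between 62.8 and 64.4% of it in each library.

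**Figure D3:**
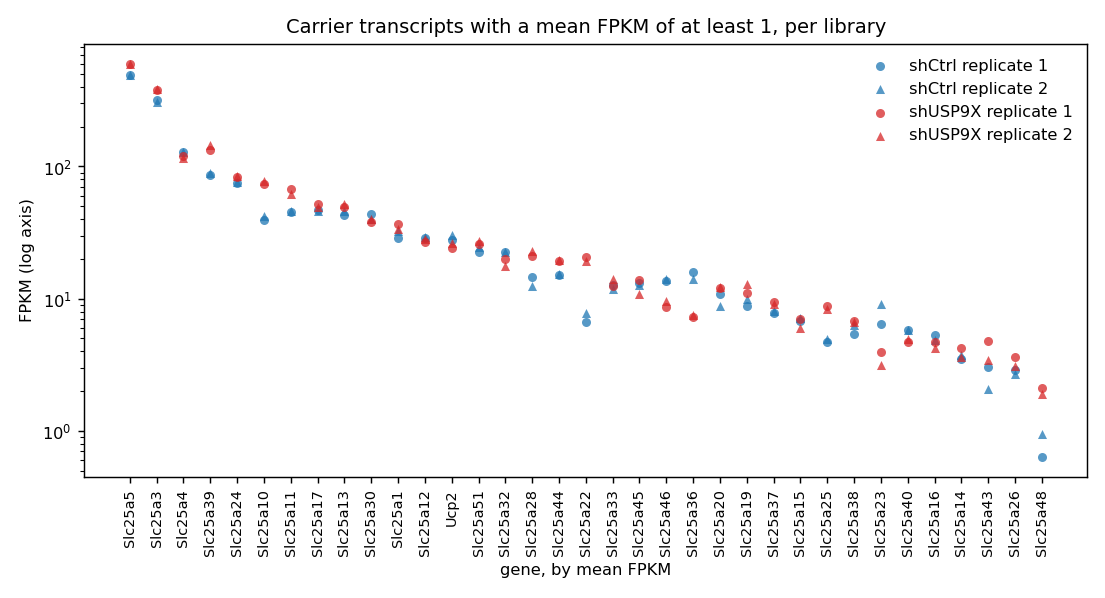
FPKM (y axis, log scale) of the 35 carriers with a mean of at least 1, ordered by mean, with a point for each shCtrl (blue) and shUSP9X (red) library. Slc25a5 leads at 490 and 489 FPKM in shCtrl and 599 and 593 FPKM in shUSP9X, and the points of a group lie close together for most carriers.

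The ADP/ATP carriers exchange matrix ATP for cytosolic ADP. Slc25a5 (ANT2; ENSMUSG00000016319, chrX:36795651-36798807), the isoform of proliferating cells, had 603 and 598 CPM in shCtrl and 751 and 743 CPM in shUSP9X. The groups did not overlap, with a log2 fold change of 0.31 (SE 0.03, edgeR adjusted p = 3.5e-09) and 0.16 with the offset. Of its transcript's 50-base words, 46.6% also occur in other annotated genes, mostly processed pseudogenes, so the division of its reads is uncertain. Slc25a4 (ANT1; ENSMUSG00000031633, chr8:46206797-46211284), the isoform of heart and muscle, fell slightly, from 247 and 245 to 232 and 227 CPM (log2 fold change -0.10, SE 0.04, edgeR adjusted p = 0.03; -0.33 with the offset). Its call was lost without shCtrl replicate 1 (edgeR adjusted p = 0.052), shUSP9X replicate 1 (0.13) or shUSP9X replicate 2 (0.33). The FPKM of Slc25a5 was 3.80 and 3.79 times that of Slc25a4 in the shCtrl libraries and 5.02 and 5.09 times in the shUSP9X libraries.

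Phosphate enters the matrix through Slc25a3, and the calcium-regulated carriers Slc25a23, Slc25a24 and Slc25a25 exchange ATP-Mg for phosphate. Slc25a3 (ENSMUSG00000061904, chr10:91116574-91124059) had 508 and 487 CPM in shCtrl and 617 and 630 CPM in shUSP9X. It rose with no overlap between the groups (log2 fold change 0.33, SE 0.03, edgeR adjusted p = 5.8e-09; 0.64 with the offset). The ATP-Mg/phosphate carriers moved in different directions. Slc25a23 (ENSMUSG00000046329, chr17:57043711-57059863) had 18.6 and 25.6 CPM in shCtrl and 11.3 and 10.7 CPM in shUSP9X, and the shCtrl libraries stood further apart than the shUSP9X libraries. It fell by 1.00 on the log2 scale (SE 0.13, edgeR adjusted p = 3.2e-07), and its log2 fold change was -1.18 with the offset. Slc25a25 (ENSMUSG00000026819, chr2:32414487-32451445) had 14.5 and 15.4 CPM in shCtrl and 26.4 and 26.0 CPM in shUSP9X. Its libraries lay close together in each group and far apart between groups, with a log2 fold change of 0.81 (SE 0.11, edgeR adjusted p = 1.8e-07; 0.78 with the offset). Slc25a24, the most abundant of the 3 in FPKM, rose by 0.19 on the log2 scale (edgeR adjusted p = 0.00014; 0.50 with the offset). Slc25a41, next to Slc25a23 on chromosome 17 with 2056 bases between them, had no count. Exons of Slc25a25 and Slc25a23 overlap genes of the opposite strand over 4.82 and 3.17% of their bases, and use of strand in counting was not given in the sources used here.

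The uncoupling proteins and their relatives showed 1 call among 4 genes tested. Slc25a27 (UCP4; ENSMUSG00000023912, chr17:43641891-43667214), a relative best known from brain, had 32 and 24 counts in the controls and 12 and 10 after knockdown, the fewest of the carriers that fell. The groups did not overlap, and the log2 fold change was -1.48 (SE 0.44, edgeR adjusted p = 0.0043; -1.60 with the offset). The call was lost in DESeq2 (adjusted p = 0.075) and, in edgeR, without shCtrl replicate 1 (adjusted p = 0.066), shUSP9X replicate 1 (0.063) or shUSP9X replicate 2 (0.057), while the log2 fold change stayed between -1.60 and -1.32. Slc25a30 (ENSMUSG00000022003, chr14:75760117-75787037), the most abundant of the group by FPKM, had 147 and 141 CPM in shCtrl and 138 and 138 CPM in shUSP9X. Its log2 fold change of -0.06 was not called (edgeR adjusted p = 0.23), and its sign turned with the offset (0.08, adjusted p = 0.12). Ucp2 had 46.3 and 52.6 CPM in shCtrl and 46.0 and 47.3 CPM in shUSP9X, groups that overlap (log2 fold change -0.08, edgeR adjusted p = 0.33). With the offset Ucp2 was called, at -0.23 (edgeR adjusted p = 0.0062).

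Of the citrate and dicarboxylate carriers, the 3 tested were higher, beside 33.8% of all genes tested. Slc25a10 (ENSMUSG00000025792, chr11:120491840-120499187), which exchanges malate or succinate for phosphate, had 79.7 and 83.6 CPM in shCtrl and 152 and 158 CPM in shUSP9X. Its libraries agree closely in each group and the groups lie far apart. The log2 fold change was 0.92 (SE 0.05, edgeR adjusted p = 9e-15), the smallest p of the carriers, and 0.67 with the offset. Slc25a11, the 2-oxoglutarate/malate carrier of the malate-aspartate shuttle, rose from 71.6 and 74.1 to 109 and 105 CPM (log2 fold change 0.56, edgeR adjusted p = 8.9e-10; 0.28 with the offset). Slc25a1, which exports citrate for lipid synthesis, rose by 0.20 on the log2 scale (edgeR adjusted p = 0.014), a call lost with the offset (-0.08, adjusted p = 0.29), without shCtrl replicate 1 (0.12, adjusted p = 0.16) and without shUSP9X replicate 1 (0.17, adjusted p = 0.11). Exons of Slc25a10 and Slc25a11 overlap genes of the opposite strand over 6.6 and 8.92% of their bases.

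Of the amino acid carriers, 3 of 7 tested were higher and none was lower, near the 33.8% higher of all genes tested. Slc25a22 (ENSMUSG00000019082, chr7:141429744-141437892), a glutamate/proton symporter, had 15.8 and 19.3 CPM in shCtrl and 44.6 and 42.6 CPM in shUSP9X. Each shUSP9X library was far above both shCtrl libraries. Its log2 fold change was 1.32 (SE 0.10, edgeR adjusted p = 4.3e-12), and it was 1.25 with the offset and between 1.19 and 1.47 with a library left out. The aspartate/glutamate carriers serve the malate-aspartate shuttle. Slc25a13 (citrin; ENSMUSG00000015112, chr6:6041218-6217173) had 130 and 140 CPM in shCtrl and 154 and 161 CPM in shUSP9X and rose slightly (log2 fold change 0.22, SE 0.05, edgeR adjusted p = 0.00025; 0.22 with the offset). Its isoform Slc25a12 (aralar) lay at -0.11 on the log2 scale (edgeR adjusted p = 0.083), and with the offset it was called higher, at 0.20. Slc25a44, a carrier of branched-chain amino acids, rose by 0.41 on the log2 scale (edgeR adjusted p = 2.2e-06; 0.24 with the offset). The ornithine carrier Slc25a15, the glycine carrier Slc25a38 and the basic amino acid carrier Slc25a29 were not called, with log2 fold changes of -0.06, 0.25 and -0.23.

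Carriers of carnitine, cofactors and glutathione moved both ways, with 3 higher and 2 lower of 12 tested, shares below the 33.8 and 33.6% of all genes tested. Slc25a39 (ENSMUSG00000018677, chr11:102402985-102407946), which brings glutathione into the matrix, had 129 and 139 CPM in shCtrl and 197 and 210 CPM in shUSP9X. The groups lay apart, with a log2 fold change of 0.60 (SE 0.05, edgeR adjusted p = 2.3e-11) and 0.33 with the offset. Its paralog Slc25a40 lay at -0.23 on the log2 scale (edgeR adjusted p = 0.10), and with the offset it was called higher, at 0.47. Slc25a36 (ENSMUSG00000032449, chr9:97074961-97111157), a pyrimidine nucleotide carrier, had 69.4 and 60.8 CPM in shCtrl and 32.1 and 30.7 CPM in shUSP9X. It fell by 1.05 on the log2 scale with no overlap (SE 0.08, edgeR adjusted p = 2.8e-12), and with the offset its log2 fold change was -0.36 (adjusted p = 0.00021). The other pyrimidine nucleotide carrier, Slc25a33, was not called (0.14, edgeR adjusted p = 0.23). Slc25a32, the carrier of folate and FAD, had 61.0 and 60.4 CPM in shCtrl and 45.8 and 42.3 CPM in shUSP9X (log2 fold change -0.46, edgeR adjusted p = 1.4e-06), but with the offset it was called higher, at 0.27 (adjusted p = 0.0015). The carnitine/acylcarnitine carrier Slc25a20 (0.32) and the peroxisomal carrier Slc25a17 (0.16) were higher at edgeR adjusted p values of 0.014 and 0.015. The call of Slc25a20 was lost with the offset (edgeR adjusted p = 0.056) and without shCtrl replicate 2 (0.19, adjusted p = 0.17), and its value was 0.50 without shCtrl replicate 1. That of Slc25a17 was lost without shUSP9X replicate 1 (0.12, edgeR adjusted p = 0.20). The NAD carrier Slc25a51 had a log2 fold change of -0.09 in counts and of 0.17 on log2(FPKM + 0.1), and neither was called.

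Iron reaches the matrix through the mitoferrins. Slc25a28 (mitoferrin-2; ENSMUSG00000040414, chr19:43663801-43674881), the form of non-erythroid cells, had 22.3 and 18.3 CPM in shCtrl and 31.8 and 34.8 CPM in shUSP9X. It rose with no overlap between the groups (log2 fold change 0.71, SE 0.10, edgeR adjusted p = 9e-07; 0.55 with the offset). Slc25a37 (mitoferrin-1), the erythroid form, had a log2 fold change of 0.19 and just missed the threshold (edgeR adjusted p = 0.057), and with the offset it was called at 0.36. It was the only carrier with an unadjusted p under 0.05 that was not called. Erythroid marker genes summed to 0 and 0 counts in the controls and to 1 and 8.45 after knockdown.

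Among 9 carriers of other or unassigned substrates, 6 were tested, of which 3 were higher and 1 was lower, beside 33.8 and 33.6% of all genes tested. Slc25a48 (ENSMUSG00000021509, chr13:56438355-56474239), related to the carnitine carrier and described as a mitochondrial choline transporter, had 37 and 50 counts in the controls and 143 and 110 after knockdown. The groups did not overlap, and it rose with a log2 fold change larger than that of any other carrier in this fit (1.39, SE 0.23, edgeR adjusted p = 7.6e-06). With the offset it was 1.21, below the 1.25 of Slc25a22. The other rises of this group rest on few counts. Slc25a43 (ENSMUSG00000037636, chrX:36743659-36777202) had 58 and 36 counts in the controls and 107 and 65 after knockdown, with a log2 fold change of 0.72 (SE 0.26, edgeR adjusted p = 0.017). Its call was lost with the offset (0.45, adjusted p = 0.14), in DESeq2 (adjusted p = 0.13) and, in edgeR, without shCtrl replicate 2 (0.48, adjusted p = 0.14) or shUSP9X replicate 1 (0.45, adjusted p = 0.29). Slc25a47 (ENSMUSG00000048856, chr12:108836046-108856815), a carrier best known from liver, had 11 and 14 counts in the controls and 20 and 42 after knockdown, so that shUSP9X replicate 2 stood apart. Its log2 fold change of 1.18 (SE 0.47, edgeR adjusted p = 0.029) became 0.43 without that library (adjusted p = 0.64), and the call was also lost with the offset (0.91, adjusted p = 0.10), in DESeq2 (adjusted p = 0.16), and in edgeR without shCtrl replicate 1 (0.97, adjusted p = 0.16) or shCtrl replicate 2 (1.44, adjusted p = 0.052). Slc25a45 (ENSMUSG00000024818, chr19:5877808-5885878), the most abundant of the group by FPKM, had 26.1 and 24.9 CPM in shCtrl and 25.1 and 22.8 CPM in shUSP9X, and the groups overlapped (log2 fold change -0.09, edgeR adjusted p = 0.43; -0.30 and called with the offset). Slc25a46, an outer membrane protein tied to mitochondrial shape, fell from 58.6 and 60.8 to 38.3 and 42.5 CPM (log2 fold change -0.57, edgeR adjusted p = 9.8e-08), and with the offset its value was 0.01 (adjusted p = 0.88).

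**Figure D4:**
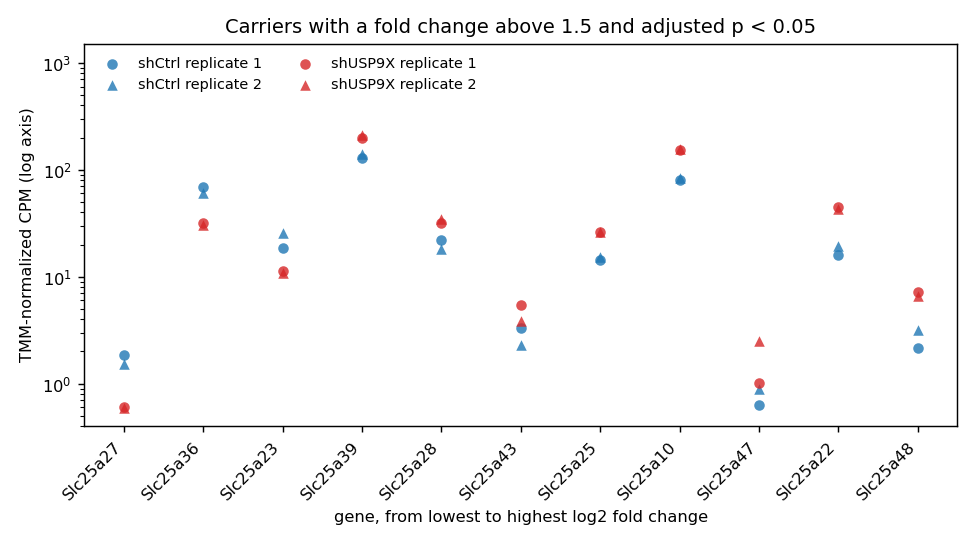
TMM-normalized CPM (y axis, log scale) in each library for the 11 carriers with a fold change above 1.5 and an adjusted p under 0.05, from the lowest to the highest log2 fold change, with shCtrl in blue and shUSP9X in red. The groups do not overlap for any of the 11, and for Slc25a47 the libraries of shUSP9X stand apart from each other.

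Where family members share a substrate, the balance between them could be read within each library, where scaling between libraries cancels. The pairs were chosen after the values had been seen, and the ratios are a description. The numerator is always the member with the higher log2 fold change, so a higher ratio in shUSP9X was set by that choice. The pairs of Slc25a24 and of Slc25a25 share the denominator Slc25a23. The FPKM ratio of Slc25a39 to Slc25a40 was 14.9 and 15.4 in shCtrl and 28.3 and 29.2 in shUSP9X. That of Slc25a33 to Slc25a36 was 0.799 and 0.835 in shCtrl and 1.72 and 1.88 in shUSP9X, so the more abundant pyrimidine nucleotide carrier by FPKM was Slc25a36 in shCtrl and Slc25a33 in shUSP9X. The order also turned between the ATP-Mg/phosphate carriers Slc25a25 and Slc25a23, with ratios of 0.728 and 0.537 in shCtrl and 2.25 and 2.62 in shUSP9X. Smaller shifts were seen for the mitoferrins, with a ratio of Slc25a28 to Slc25a37 of 1.87 and 1.55 in shCtrl and 2.21 and 2.54 in shUSP9X, and for Slc25a13 to Slc25a12, with 1.47 and 1.56 in shCtrl and 1.86 and 1.82 in shUSP9X. These ratios carry the GC content and length trend of their members. The difference between the log2 fold changes of a pair went from 0.84 without to -0.14 with the offset for Slc25a39 and Slc25a40, from 0.33 to 0.02 for Slc25a13 and Slc25a12, and from 0.52 to 0.19 for the mitoferrins. For Slc25a33 and Slc25a36 it went from 1.19 to 0.24, so the turn in their order was seen only in the FPKM without that correction. In the other 3 pairs the difference was no smaller with the offset. It went from 1.81 to 1.95 for Slc25a25 and Slc25a23, from 1.18 to 1.68 for Slc25a24 and Slc25a23, and from 0.41 to 0.48 for Slc25a5 and Slc25a4.

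**Figure D5:**
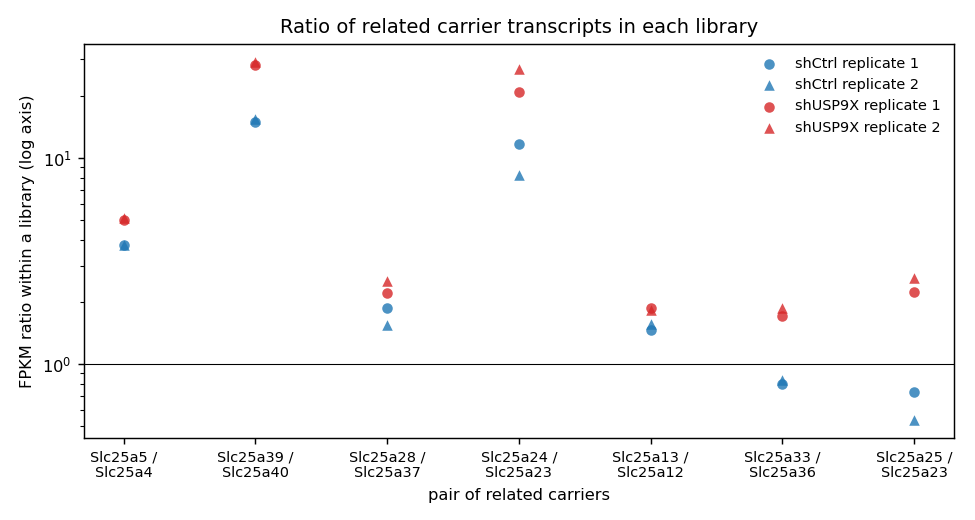
Ratio of the FPKM of related carriers within each library (y axis, log scale), with shCtrl in blue, shUSP9X in red and a line at 1. In each of the 7 pairs the numerator is the member with the higher log2 fold change. That choice sets the shUSP9X ratios above the shCtrl ratios. For Slc25a33 to Slc25a36 and Slc25a25 to Slc25a23 the groups lie on opposite sides of 1.

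Promoter windows are shown for Slc25a48 and Slc25a10, which rose, and for Slc25a36 and Slc25a23, which fell, to set the sequence at the start of these genes beside their change. RefSeq windows (GRCm38.p6, from 250 bases before to 50 after the annotated start) were found for 39 of the 50 carriers. Each window is 300 bases, written 5′ to 3′ on the strand of the gene, and capitals mark a match of 1 of 6 short motifs on either strand: the GC box GGGCGG, the cyclic AMP response element TGACGTCA, the E-box CACGTG, the NRF1 core TGCGCA, the estrogen-related receptor core AAGGTCA and the CCAAT box CCAAT.
Slc25a48, chr13:56438105-56438404, plus strand: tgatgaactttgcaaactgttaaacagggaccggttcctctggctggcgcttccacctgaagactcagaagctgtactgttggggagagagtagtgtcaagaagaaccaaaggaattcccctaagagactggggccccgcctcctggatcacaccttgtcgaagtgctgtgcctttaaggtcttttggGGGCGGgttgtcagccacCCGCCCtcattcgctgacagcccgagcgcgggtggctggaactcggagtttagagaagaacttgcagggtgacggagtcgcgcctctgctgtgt
Slc25a10, chr11:120491587-120491886, plus strand: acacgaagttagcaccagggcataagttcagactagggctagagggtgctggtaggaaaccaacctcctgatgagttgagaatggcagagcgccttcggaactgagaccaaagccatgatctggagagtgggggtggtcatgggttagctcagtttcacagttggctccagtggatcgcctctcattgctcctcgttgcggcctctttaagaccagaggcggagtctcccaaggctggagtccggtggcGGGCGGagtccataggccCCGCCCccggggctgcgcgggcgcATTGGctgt
Slc25a36, chr9:97110992-97111291, minus strand: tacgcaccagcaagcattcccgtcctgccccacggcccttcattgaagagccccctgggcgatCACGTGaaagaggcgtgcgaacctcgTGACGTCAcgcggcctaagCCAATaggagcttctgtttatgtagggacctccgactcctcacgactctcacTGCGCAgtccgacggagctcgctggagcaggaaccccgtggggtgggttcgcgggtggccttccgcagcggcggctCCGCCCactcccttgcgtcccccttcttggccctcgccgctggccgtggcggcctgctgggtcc
Slc25a23, chr17:57059793-57060092, minus strand: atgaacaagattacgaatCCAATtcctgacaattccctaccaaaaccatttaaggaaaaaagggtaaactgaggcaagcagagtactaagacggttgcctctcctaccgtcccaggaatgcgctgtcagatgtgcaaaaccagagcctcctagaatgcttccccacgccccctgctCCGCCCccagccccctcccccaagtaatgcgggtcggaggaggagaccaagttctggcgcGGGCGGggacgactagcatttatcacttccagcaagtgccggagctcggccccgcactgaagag

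The windows of Slc25a48 and Slc25a10 each hold 2 GC boxes, and Slc25a10 also a CCAAT box. That of Slc25a36, with a GC content of 66.7%, holds 1 match each of GC box, response element, E-box, NRF1 core and CCAAT box, whereas the window of Slc25a23 holds 2 GC boxes and a CCAAT box. Over the 31 carriers tested that have a window, 28 (90.3%) hold a GC box, beside 71.0% of the 9098 genes tested that have a window and 38.2% of all 27025 genes with a window. The CCAAT box was present in 16 of the 31 (51.6%, beside 43.6% of genes tested and 41.1% of all), the E-box in 6 (19.4%, beside 11.9 and 8.09%), the NRF1 core in 2 (6.45%, beside 16.5 and 8.79%) and the response element in 2 (6.45%, beside 3.74 and 2.03%). The estrogen-related receptor core was in none of the 31, beside 3.73% of genes tested and 5.38% of all. No motif contains another, and a match is a description of the letters in this window.

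The machinery that brings carriers into the inner membrane was also measured. Of 16 genes for the TOM pore, the small TIM chaperones and the TIM22 complex, all were tested, 10 were higher and 1 was lower, beside 33.8% (higher) and 33.6% (lower) of all genes tested, and their median log2 fold change was 0.33. Tomm5, a small TOM subunit, rose from 28.5 and 27.8 to 61.3 and 55.5 CPM (log2 fold change 1.06, edgeR adjusted p = 3.8e-12; 0.96 with the offset). Tomm40, which forms the pore, rose by 0.73 on the log2 scale (edgeR adjusted p = 1.8e-13; 0.52 with the offset). Tomm70a, the receptor that binds carrier precursors, was the gene that fell (-0.14, edgeR adjusted p = 0.0051). Its call was lost without shUSP9X replicate 1 (-0.08, edgeR adjusted p = 0.27), and with the offset it was called higher, at 0.64. Timm22, the insertion channel for carriers, rose by 0.28 (edgeR adjusted p = 0.0078) and was not called with the offset (0.15, adjusted p = 0.13), without shCtrl replicate 2 (0.19, adjusted p = 0.076) or without shUSP9X replicate 2 (0.23, adjusted p = 0.075).

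Other transport proteins of the mitochondrial membranes, such as the pyruvate carrier, the VDAC pores, the sideroflexins, the calcium uniporter and the ABC transporters, gave 12 higher and 4 lower of 26 tested, with a median of 0.11 (0.18 with the offset), against the same 33.8 and 33.6% of all genes tested. The largest rises without the offset were those of Abcb6, a porphyrin transporter, and Vdac1, the main outer membrane pore. Abcb6 lay at 0.72 (edgeR adjusted p = 1.5e-08; 0.56 with the offset). Vdac1 went from 472 and 436 to 679 and 657 CPM (0.56, edgeR adjusted p = 8.1e-13; 0.35 with the offset). With the offset the largest rise was that of Vdac3, at 0.93 (edgeR adjusted p = 3.4e-13), beside 0.25 without it. Micu3, a regulator of the calcium uniporter, fell (-0.91, edgeR adjusted p = 0.00016) and was not called with the offset (-0.07).

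Enzymes that make or use the substrates of the carriers gave 17 higher and 10 lower of 40 rows tested, with a median of 0.12 (0.04 with the offset, as for all genes tested). The background for these and for the smaller groups that follow is again 33.8% (higher) and 33.6% (lower) of all genes tested. Divided by substrate, a division made after the values had been seen, the citrate enzymes Cs (0.40) and Acly (0.40) and 3 of the 4 enzymes of the malate-aspartate shuttle were higher, as were the carriers of these substrates Slc25a1, Slc25a11 and Slc25a13, but not Slc25a12. With the offset Cs and Acly were still called higher, at 0.34 and 0.31. Enzymes of branched-chain amino acids did not move with their carrier Slc25a44, which rose. Of these 4 enzymes 0 were higher and 1, Dbt, was lower (-0.67, edgeR adjusted p = 4.6e-09), and 3 were lower with the offset. Of 5 iron and heme enzymes, 4 were higher, and 3 with the offset, where Iscu lost its call (0.32 without and 0.04 with it). Alas1, the first enzyme of heme synthesis, rose from 31.5 and 29.3 to 60.0 and 52.2 CPM (log2 fold change 0.88, edgeR adjusted p = 2.9e-10; 0.71 with the offset). Of 5 folate enzymes, 3 were lower and 1 was higher, but 2 were lower and 0 higher with the offset, where Mthfd2l (0.27), Aldh1l2 (-0.19) and Mthfd1l (0.02) lost their calls and Shmt2 (-0.21) gained one. The calls of Mthfd2l (-0.24, edgeR adjusted p = 0.18) and Mthfd1l (0.07, adjusted p = 0.44) were also lost without shUSP9X replicate 1, and that of Mthfd2l without shCtrl replicate 2 (-0.26, adjusted p = 0.12). Mthfd2, the matrix dehydrogenase of one-carbon metabolism, fell by 0.50 on the log2 scale (edgeR adjusted p = 1.7e-09), and lay at -0.67 with the offset. The enzymes of ornithine and proline split, with 3 lower and 2 higher. Among the latter was Prodh, which oxidizes proline (0.83, edgeR adjusted p = 0.0022). Pank3, which starts coenzyme A synthesis, fell (-0.73, edgeR adjusted p = 4.2e-14) and was called higher with the offset (0.27). Nnt, the proton-pumping transhydrogenase, has 2 rows called in opposite directions (-0.77 and 0.80). In both, shUSP9X replicate 2 stood apart from replicate 1, at 11.4 beside 35.4 CPM and at 36.8 beside 16.8 CPM. With a library left out, the values came as near to 0 as -0.19 and 0.15. Their estimated counts are not whole numbers, so reads were divided between genes and both rows are uncertain. Their summed level was 52.2 and 59.8 CPM in shCtrl and 52.2 and 48.2 CPM in shUSP9X, where the groups overlap.

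Several carriers lie beside each other in the genome. Slc25a29 and Slc25a47 start from opposite strands of chromosome 12 with 162 bases between them, and had log2 fold changes of -0.23 (not called) and 1.18. Slc25a43 lies 18448 bases from Slc25a5 on chromosome X, and both were higher (0.72 and 0.31). Ucp3 and Ucp2, with 6904 bases between them on chromosome 7, were listed at no count and at 46.0 to 52.6 CPM.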

How the data were processed

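Polyadenylated RNA of ID8 cells was sequenced in 2 shCtrl and 2 shUSP9X libraries, grouped by their labels. The reads had been mapped to GRCm38. For each gene and library the authors deposited FPKM, scaled for length and library size, and an unnormalized estimated count. The submitters' processing notes name fastp 0.18.0, Bowtie2 2.2.8, HISAT2, StringTie 1.3.1 and RSEM, without roles. The annotation release was not given in the sources used here.

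The test had been planned for whole-number counts. Between 6.4 and 6.69% of the estimated counts were not whole, so they were rounded. In R 4.3.3 with edgeR 4.0.16, filterByExpr kept 11448 genes, TMM scaled the libraries, and quasi-likelihood p-values were adjusted by Benjamini-Hochberg over these genes. The common biological coefficient of variation was 0.0352. Libraries of a group differed by more than counting noise (chi-square per gene 3.41 in shCtrl and 2.23 in shUSP9X). The design is 2 against 2, so no permutation test can reach 0.05, and errors cover the spread between libraries only. Coordinates, GC content, length, overlaps and shared 50-base words came from GENCODE M21 (GRCm38), where 99.8% of genes tested had a GC content and length.

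Alternatives were DESeq2 1.42.0, its size factors, upper quartile and library size scaling, no filter, at least 10 counts in every library, limma 3.58.1 on log2(FPKM + 1) and log2(FPKM + 0.1) for means of 1 FPKM or more, a replicate block, a loess offset on GC content and length (span 0.3), both together, and each library left out. The edgeR fits without a block, with and without the offset, were tested on simulated data. Carriers with an adjusted p under 0.05 and a fold change above 1.5, and the carrier of highest mean FPKM in each substrate group, are given per library, and the 2 largest rises and falls of each other list are named. Further genes were named after their values were seen. Some genes of the other lists are not reported here. The carriers, substrate groups, other lists and markers were chosen with earlier results of these data known.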

Additional observations from a re-analysis of the deposited data

How the results depend on the processing

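Counts of carriers at an adjusted p under 0.05 were 4 to 7 lower and 12 to 18 higher over the 15 alternatives. The cause of the changes below was not tested. With the GC content and length offset, and with the replicate block and that offset, carriers higher at the study's cutoff numbered 5 and 5, against 8, carrier import genes lower numbered 0 and 0, against 1, and the log2 fold change of Slc25a30 was 0.0760 and 0.0760, against -0.06. The median log2 fold change of the carriers was 0.17, and it was 0.14 with the offset, 0.14 with the replicate block and the offset, 0.14 with library size only, 0.20 with upper quartile scaling and 0.19 on log2(FPKM + 0.1), where 35 carriers had a value. The median of all genes moved too, and the carriers lay above it by 0.17, and by 0.17 with library size only and with upper quartile scaling, but by 0.10 with the offset. With the offset 43.5% of all genes called were lower, against 49.9%. With a library left out, a group of 1 library is assumed to vary like the other. The ranges were then 4 to 7 carriers lower, 14 to 16 higher, 3 to 4 lower and 6 to 7 higher at the study's cutoff, 0.15 to 0.18 for the median and 0 to 1 carrier import genes lower. DESeq2 called 4 carriers lower and 12 higher, and 16 of the 23 calls were kept. Replicate numbers did not pair the libraries (correlation of deviations -0.0453), and with the replicate block alone 6 carriers were lower and 17 higher, all 23 calls were kept and 7665 genes changed, against 7707. For the 16 carriers past the 1.5-fold mark or of highest FPKM in their substrate group, and not for the rest, 217 values under the alternatives stayed on their side of the threshold, 15 lost the call (Slc25a27, Slc25a43 and Slc25a47), 2 gained it (Slc25a45) and 2 turned sign. Depth limits the carriers with the fewest counts among those tested, Slc25a27, Slc25a29, Slc25a35, Slc25a42, Slc25a43 and Slc25a47, with 8.04 to 107 counts a library, and the 4 carriers counted but not tested.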
